A study of Homo sapiens with 8 samples.

Results

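HCC4006 and HCC827, human lung adenocarcinoma lines with activating mutations of the receptor kinase gene EGFR, were compared for the genes whose change with gefitinib resistance differed between them. The members were chosen from the FPKM tables of both lines (fragments per kilobase of transcript at a common library size). A row entered if its gene name and locus matched in both tables and its value lay above 0 in all 8 libraries, which held for 14613 of 48405 rows. For each row, the change in a line was the resistant minus the DMSO mean of log2(FPKM + 0.5), and the contrast was the HCC827 change less that of HCC4006. Of the 14613 rows, 187 (1.28%) were called in this contrast at a limma adjusted p below 0.05. The change in HCC827 lay above that in HCC4006 in 125 of them (0.855% of all rows) and below it in 62 (0.424%).

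The 4 groups were HCC4006 carried in DMSO, the solvent control, HCC4006 resistant to 3 µM gefitinib, HCC827 carried in DMSO and HCC827 resistant to 3 µM gefitinib, with 2 libraries of polyadenylated RNA each. Values of a group are given in the order of libraries A and B, letters that name columns only. The labels do not tie the 2 libraries of a group to separate cultures, so the p-values reflect spread between samples that may be technical only. The labels do not say whether a resistant culture was 1 clone, and effects of resistance and of drug still present cannot be told apart. The study, per its title, concerns cellular reprogramming and a loop of the growth factor FGF2 and its receptor FGFR1.

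Gefitinib blocks the EGFR kinase, on which lung cells with activating EGFR mutations depend for growth signals. Cells that grow out in the drug are known to take different routes, among them amplification of the receptor gene MET and the epithelial to mesenchymal transition (EMT), in which cells give up E-cadherin junctions for a migratory form. The repressors ZEB1 and SNAI act in that transition by binding the E-box CACCTG in promoters of epithelial genes, and E-cadherin (CDH1) is their best known target.

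The E-box was looked for in promoters of the diverging genes. E-boxes were counted gene by gene in the promoters of 6 called genes of the epithelial junction and regulator lists. There were 5 in CRB3, 3 in AP1M2, 2 in RAB25, 2 in DSP, 1 in CDS1 and 0 in MARVELD2. A called gene of these lists outside the 6 may also have a matching promoter, for which no count is given. Shown are CRB3, AP1M2 and RAB25, as examples with several, and MARVELD2, which had none, with WFDC2, which moved in opposite directions, and FAM43A, which fell in HCC827. They were chosen with these counts known. They are RefSeq sequences of GRCh38.p14, from 250 bases before to 50 after the start, written 5′ to 3′ on the gene's strand, with CACCTG and its reverse complement CAGGTG in capitals. They lie at chr19:6464021-6464320 (CRB3, plus strand), chr19:10587263-10587562 (AP1M2, minus strand), chr1:156060910-156061209 (RAB25, plus strand), chr5:69414866-69415165 (MARVELD2, plus strand), chr20:45469503-45469802 (WFDC2, plus strand) and chr3:194685633-194685932 (FAM43A, plus strand). WFDC2 held 2 E-boxes and FAM43A 0.
CRB3: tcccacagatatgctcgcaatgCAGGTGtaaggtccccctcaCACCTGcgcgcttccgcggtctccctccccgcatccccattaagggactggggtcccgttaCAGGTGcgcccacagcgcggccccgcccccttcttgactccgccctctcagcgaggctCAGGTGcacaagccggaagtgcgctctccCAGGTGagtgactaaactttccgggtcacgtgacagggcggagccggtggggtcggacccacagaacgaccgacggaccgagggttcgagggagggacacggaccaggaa
AP1M2: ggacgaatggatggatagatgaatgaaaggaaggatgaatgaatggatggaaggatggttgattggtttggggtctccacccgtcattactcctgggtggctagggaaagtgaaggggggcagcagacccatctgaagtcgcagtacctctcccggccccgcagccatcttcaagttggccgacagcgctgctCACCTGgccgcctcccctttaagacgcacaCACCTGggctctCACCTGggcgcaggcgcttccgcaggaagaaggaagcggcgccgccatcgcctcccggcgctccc
RAB25: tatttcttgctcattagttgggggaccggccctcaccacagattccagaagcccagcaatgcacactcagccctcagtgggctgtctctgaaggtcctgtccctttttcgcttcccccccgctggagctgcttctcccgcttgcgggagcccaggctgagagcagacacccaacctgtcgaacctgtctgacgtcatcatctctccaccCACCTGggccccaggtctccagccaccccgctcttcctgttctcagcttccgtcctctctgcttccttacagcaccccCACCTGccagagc
MARVELD2: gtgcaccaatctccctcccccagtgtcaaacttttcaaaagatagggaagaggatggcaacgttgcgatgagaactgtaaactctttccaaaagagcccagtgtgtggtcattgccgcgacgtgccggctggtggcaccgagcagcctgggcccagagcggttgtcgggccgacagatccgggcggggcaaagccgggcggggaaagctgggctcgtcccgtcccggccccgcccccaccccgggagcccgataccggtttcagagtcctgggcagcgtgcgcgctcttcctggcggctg
WFDC2: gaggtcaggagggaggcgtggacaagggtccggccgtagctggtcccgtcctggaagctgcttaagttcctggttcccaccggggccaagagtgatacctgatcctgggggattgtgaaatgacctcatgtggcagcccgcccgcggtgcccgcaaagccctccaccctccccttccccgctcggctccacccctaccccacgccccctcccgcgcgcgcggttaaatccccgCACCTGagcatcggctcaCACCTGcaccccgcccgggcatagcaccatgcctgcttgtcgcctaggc
FAM43A: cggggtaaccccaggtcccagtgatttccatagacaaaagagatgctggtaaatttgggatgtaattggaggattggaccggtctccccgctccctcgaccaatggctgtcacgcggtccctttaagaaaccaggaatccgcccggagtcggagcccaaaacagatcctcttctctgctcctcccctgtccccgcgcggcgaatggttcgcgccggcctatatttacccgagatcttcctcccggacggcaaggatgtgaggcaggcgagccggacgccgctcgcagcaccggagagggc

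CACCTG on either strand occurred in 20.6% of all 35116 promoters of the same length in that table. Among the 66 rows that fell in HCC4006 alone, 15 had a single matching promoter and 11 of these held the E-box. Among the 14613 rows, 4694 had a matching promoter and 809 of these held it. Fewer than 80% of the rows had a promoter in either set, so a comparison of shares is void, and the counts describe only the promoters found. A match is a run of letters and does not show that a factor was bound.

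Depth is unknown, since FPKM hold no counts. Between 17452 and 19333 rows lay above 0 in a library, and the 10 highest rows held 5.28% to 15.6% of all FPKM, the most in library A of HCC4006 DMSO. The median absolute log2 difference between the libraries of a group was 0.532 in resistant HCC827, 0.360 in HCC827 DMSO, 0.212 in resistant HCC4006 and 0.540 in HCC4006 DMSO. As checks of the lines as lung adenocarcinoma cells, EPCAM, KRT8, KRT19 and EGFR were above 0 in all 8 libraries, and the lung factor gene NKX2-1 on a row shared with SFTA3 was too, while KRT7 was listed at 0 in all 8.

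Changes in one line said little about changes in the other. Over the 14613 rows the Pearson correlation of the changes was −0.104 and Spearman's rho −0.169, a description across genes, which are not independent. The changes had opposite signs in 56.8% of all rows and in 162 of the 187 called rows (86.6%), a share that the contrast itself favours. Within HCC827, 70 rows were called (0.479%), 33 higher in resistant cells (0.226%) and 37 lower (0.253%). In HCC4006, 232 rows were called (1.59%), 39 higher (0.267%) and 193 lower (1.32%). There were 4 rows called in both lines, 1 of them with the same sign. Calls covered 0.479% and 1.59% of all rows in the lines, so this count does not show a lack of overlap. The counts depended on single libraries, and the number called in the difference was 82 without library A and 1166 without library B of HCC4006 DMSO, 19 and 11 without those of resistant HCC4006, 44 and 33 without those of HCC827 DMSO, and 64 and 32 without those of resistant HCC827.

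The 187 rows were sorted by what each line did. A row was placed in an opposite class if both lines were called with opposite signs, which 3 rows met. It was placed with HCC4006 alone, or HCC827 alone, if only that line was called and the other line's change lay below 1 in absolute log2 value. HCC4006 alone held 72 rows, 66 lower and 6 higher in resistant cells, and HCC827 alone held 24, 12 in each direction. The class of rows called in both lines with the same sign held 0 rows, and 88 rows remained. With each library left out in turn, the opposite class held 0 to 16 rows, HCC4006 alone 7 to 386 and HCC827 alone 1 to 56, the highest counts all without library B of HCC4006 DMSO. A miss of the threshold does not show that a line did not change. The 95% interval of the other line's change lay wholly within ±1 for 12 of the 72 HCC4006 rows and 5 of the 24 HCC827 rows.

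**Figure D1:**
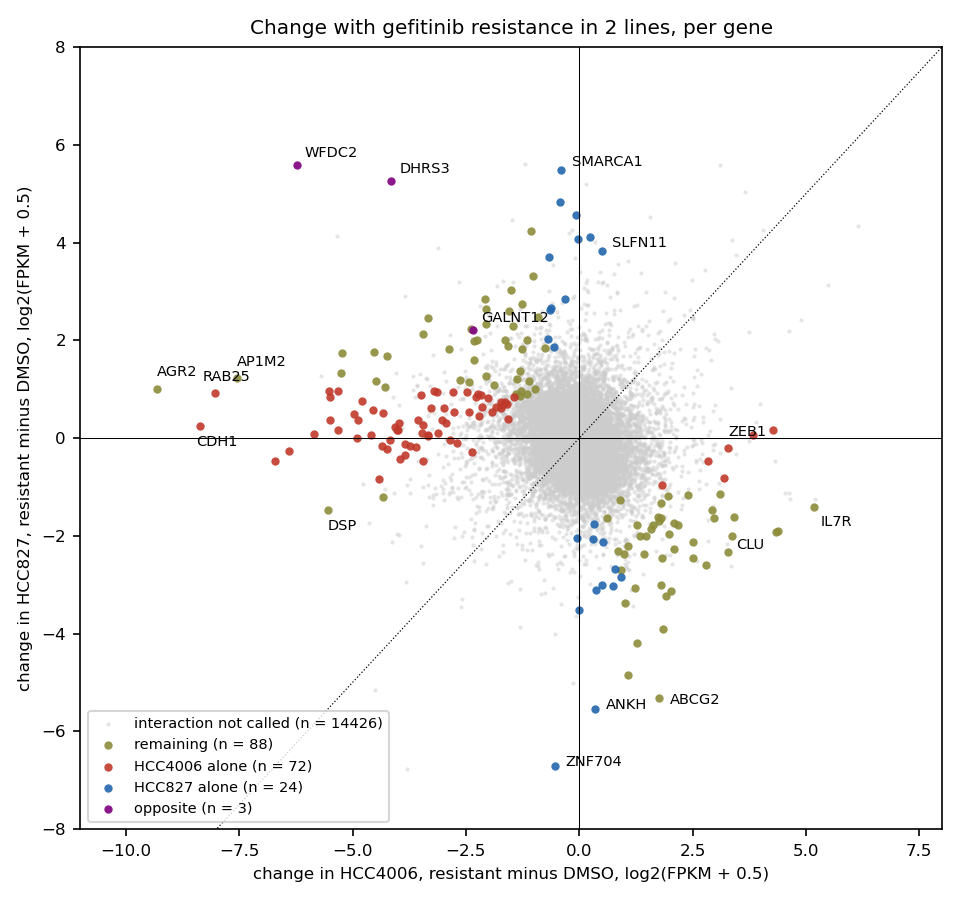
Change with resistance in HCC4006 (x axis) against HCC827 (y axis), each the difference of group means of log2(FPKM + 0.5), for the 14613 tested rows; colours give the class of the 187 called rows and the dotted line marks equal change. Red points (HCC4006 alone, 72 rows) lie mostly far to the left near the horizontal axis, blue points (HCC827 alone, 24 rows) along the vertical axis, and WFDC2 and DHRS3 at the upper left.

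Most tested genes of epithelial junctions were called lower in HCC4006, and their median change in HCC827 was −0.19. E-cadherin, encoded by CDH1 (chr16:68771127-68869444), stood at 1518 and 945 FPKM in DMSO-carried HCC4006 and at 3.03 and 3.29 in resistant HCC4006. In HCC827 it measured 1325 and 1081 FPKM in DMSO and 1804 and 1132 in resistant libraries. The 2 resistant HCC4006 libraries were thus far below the other 6, which overlapped. CDH1 changed by −8.36 on the log2 scale in HCC4006 (adjusted p = 4.41e-05) and by 0.26 in HCC827 (95% interval −0.53 to 1.05), and the difference was 8.61 (SE 0.49, adjusted p = 0.000381). Coordinates of measured genes are those of the tables, in hg19.

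P-cadherin, encoded by the neighbouring gene CDH3 (chr16:68678150-68732971), went from 1352 and 687 FPKM to 8.65 and 8.77 in HCC4006. In HCC827 it stood at 1108 and 662 FPKM in DMSO and 539 and 706 in resistant libraries, with overlapping groups. The difference of changes was 6.24 (SE 0.56, adjusted p = 0.00472). CRB3, a polarity protein of the apical membrane, went from 164 and 111 to 6.88 and 5.69 FPKM in HCC4006 and from 113 and 101 to 135 and 173 in HCC827 (difference 4.83, SE 0.49, adjusted p = 0.00674). The tight junction gene CLDN7 went from 2242 and 1261 to 57.8 and 81.8 FPKM in HCC4006, against 1144 and 817, then 1020.4 and 1012 in HCC827 (difference 4.67, SE 0.51, adjusted p = 0.00877). For both genes the resistant HCC4006 libraries were the lowest of the 8.

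Of 24 junction genes listed, 20 were tested and 9 were called (45%), all of them with the higher change in HCC827, against 1.28% of all rows. The median change was −2.77 in HCC4006 and −0.19 in HCC827, and that of the difference 2.31, against −0.05 over all rows. Within HCC4006, 14 of the 20 were called lower, against 1.32% of all rows, and 0 higher, against 0.267%. In HCC827 0 were called, against 0.479% of all rows, so that count does not set the list apart. Over this list and the next, 17 members were called, and between 5 and 21 when each library was left out, the fewest without a resistant HCC4006 library. The remaining called members were the adhesion gene EPCAM (difference 3.42), the desmosome genes DSP (4.08) and JUP (3.37), the tricellular junction gene MARVELD2 (3.58) and the tight junction scaffold gene TJP3 (6.28). EPCAM kept 183 and 113 FPKM in resistant HCC4006 after 1529 and 2003 in DMSO. Not every junction gene passed. CLDN1 changed by −0.91 in HCC4006 and −1.20 in HCC827 and was not called in the difference.

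DSP, which encodes the desmosomal linker desmoplakin, was not flat in HCC827. It measured 220.1 and 219 FPKM in HCC4006 DMSO libraries and 3.81 and 4.62 in resistant ones, and 200.5 and 198, then 71.8 and 71.9 in HCC827. All 4 resistant libraries lay below all 4 DMSO libraries. The HCC827 change of −1.46 (95% interval −2.15 to −0.78) did not pass (adjusted p = 0.0935), and the HCC4006 change was −5.55. The difference was 4.08 (SE 0.42, adjusted p = 0.00762), so the lines differed in the size of the change and not in its sign.

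Most tested regulators and trafficking genes of epithelia also fell in HCC4006. Of 24 listed, 13 were tested and 8 were called (61.5%, against 1.28% of all rows). All 13 had a positive difference, with a median of 3.49. The median change was −3.44 in HCC4006, where 11 were called lower, against 1.32% of all rows. In HCC827 the median was 0.08, and 0 were called, against 0.479% of all rows. RAB25, a small GTPase of membrane recycling (chr1:156030950-156040295), went from 1652 and 989.7 FPKM to 4.28 and 4.45 in HCC4006. In HCC827 it measured 535 and 319.9, then 654 and 934 FPKM. Both resistant HCC827 libraries were above both DMSO ones, a change of 0.92 that did not pass (adjusted p = 0.307). The difference was 8.95 (SE 0.53, adjusted p = 0.000427).

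AP1M2 encodes the epithelial subunit of a clathrin adaptor (chr19:10683346-10697991). It measured 772 and 637 FPKM in HCC4006 DMSO libraries, 3.35 and 3.11 in resistant HCC4006 and, in HCC827, 258 and 178, then 499.9 and 505. The groups did not overlap in either line, and the signs were opposite. Its HCC827 rise of 1.23 on the log2 scale was not called (adjusted p = 0.128), which left it outside the opposite class. The difference was 8.78 (SE 0.42, adjusted p = 0.000302).

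The membrane protease gene ST14 went from 672 and 847 to 15 and 10.5 FPKM in HCC4006 and stood at 733 and 395, then 601 and 537 in HCC827 (difference 5.93, SE 0.51, adjusted p = 0.00447). Its partner protease gene PRSS8 (difference 5.48) and the gene of their inhibitor, SPINT1 (3.88), were called in the same direction. So were the splicing factor gene ESRP2 (3.40), the transcytosis gene MAL2 (3.49) and the phospholipid synthesis gene CDS1 (3.57). The epithelial integrin genes ITGB4 and ITGB6 had differences of 2.98 and 4.90. They were the 2 called of 15 tested integrin and laminin genes, against 1.28% of all rows. ITGB6 measured 55.7 and 62.6 FPKM in HCC4006 DMSO, 1.52 and 1.47 in resistant HCC4006, and 384 and 219, then 381 and 219 in HCC827.

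KRT19, a keratin of simple epithelia, went from 4738 and 7263 FPKM to 486 and 515 in HCC4006, while in HCC827 it measured 5303 and 4363, then 4428 and 8672 (difference 3.92, SE 0.58, adjusted p = 0.028). It was the 1 called of 4 tested keratins, against 1.28% of all rows. KRT8 changed by −1.52 in HCC4006 and −1.53 in HCC827, neither called. Rows of the processed copies KRT19P3 and KRT8P18 were also called with HCC4006 alone, and their reads may be shared with the parent genes. Of the 72 rows of that class, 30 shared a locus with another row and 19 had a clone-based name. CDH1, EPCAM, CLDN7, TJP3, CRB3, ESRP2, SPINT1, MAL2, ZEB1, ABCG2, ABCC2, VIM and EGFR are among the genes whose locus is listed for a further row, so reads may be split between such rows, and their values are uncertain to that extent.

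**Figure D2:**
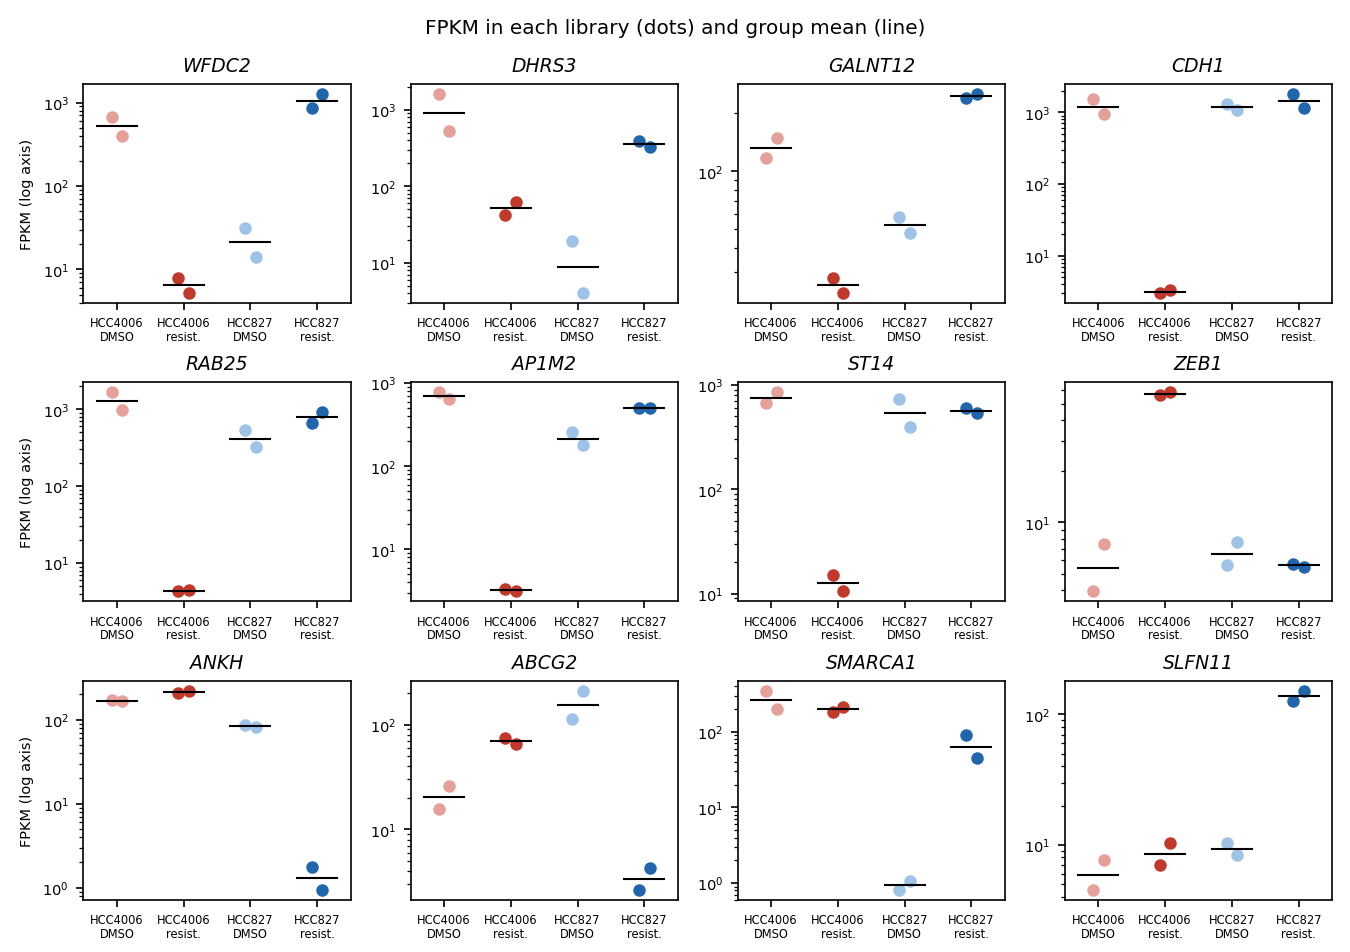
FPKM (log axis) of 12 diverging genes in the 8 libraries; dots are libraries, lines are means of 2, red is HCC4006 and blue HCC827, with resistant groups darker. CDH1, RAB25, AP1M2 and ST14 drop in the resistant HCC4006 libraries and not in the resistant HCC827 ones, while ANKH drops and SMARCA1 and SLFN11 rise in the resistant HCC827 libraries.

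The requirement of a value above 0 in all 8 libraries left out further epithelial genes, which therefore have no test. GRHL2, which encodes a factor that maintains epithelial identity, was listed at 0 in both resistant HCC4006 libraries, with 134 and 138 FPKM in DMSO and 317 and 287, then 176 and 89.1 in HCC827. TMEM30B, a lipid flippase subunit gene, was listed at 0 in the same libraries, with 177 and 153 FPKM in DMSO and 389 and 266, then 491 and 415 in HCC827. S100A14 was as well, with 583 and 166 FPKM in DMSO and 1082 and 296, then 1132 and 1107 in HCC827. Others went against this direction. CLDN4 and CGN, tight junction genes, were listed at 0 in both HCC4006 DMSO libraries and above it in resistant HCC4006, CLDN4 at 222 and 284 FPKM and CGN at 139 and 177. The row of CLDN4, which joins it with AC093168.1, was at 0 in all 4 HCC827 libraries. CGN measured 490.0 and 376, then 647 and 327 FPKM in HCC827. OCLN, the gene of occludin, was listed at 0 in both resistant HCC827 libraries after 279.9 and 307 FPKM in DMSO, and measured 90.4 and 98.2, then 21.3 and 25.1 in HCC4006. A 0 in these tables can be a failed estimate. Of rows above 0 in both libraries of the 3 other groups, 179 were listed at 0 in both resistant HCC4006 libraries, 161 in both resistant HCC827 libraries, 397 in HCC4006 DMSO and 459 in HCC827 DMSO.

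Outside the lists, the rule for named genes picked 3 further genes that fell in HCC4006. STRA6, the retinol uptake receptor gene, went from 610.5 and 135 FPKM to 4.06 and 8.24 in HCC4006 and from 37.3 and 14.5 to 71.2 and 29.7 in HCC827 (difference 6.48, SE 1.13, adjusted p = 0.0422). PTAFR, the receptor gene for platelet-activating factor, went from 76.8 and 62.4 to 1.20 and 0.886 FPKM in HCC4006, against 97.1 and 64.5, then 158 and 127 in HCC827 (difference 6.34, SE 0.53, adjusted p = 0.00447). SCNN1A, a subunit gene of the epithelial sodium channel, went from 464 and 117 to 5.31 and 5.31 FPKM in HCC4006, against 412 and 379, then 765 and 773 (difference 6.29, SE 0.78, adjusted p = 0.0162). In HCC827 all 3 genes were nominally higher in resistant cells, by 0.83 to 0.97 on the log2 scale, and 0 of them passed. MYO1D, a myosin gene chosen after its values were seen, had a difference of 6.12.

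Only 6 rows rose in HCC4006 alone. ZEB1, the E-box repressor (chr10:31596657-31818742), measured 3.93 and 7.44 FPKM in HCC4006 DMSO libraries and 56.3 and 58.3 in resistant ones. In HCC827 it stayed low, at 5.60 and 7.63 FPKM in DMSO and 5.72 and 5.47 in resistant libraries. The difference was −3.49 (SE 0.61, adjusted p = 0.042). It was the 1 called of 6 tested EMT transcription factor genes, against 1.28% of all rows. All 6 had a negative difference (median −1.09). ZEB2 was listed at 0 in 1 HCC827 DMSO library and was not tested; it measured 1.58 and 1.36, then 79.4 and 78.0 FPKM in HCC4006, against 2.60 and 1.0 in resistant HCC827.

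AP1S2, another clathrin adaptor subunit gene, rose from 33.4 and 52.5 FPKM to 309 and 301 in HCC4006 and stood at 71.5 and 63.7, then 57.7 and 41.5 in HCC827 (difference −3.31, SE 0.49, adjusted p = 0.0278). HCC4006 thus lost the epithelial adaptor subunit transcript AP1M2 and gained that of AP1S2. Chosen after their values were seen, the peptidase gene DPP4 (difference −4.00) and the prostaglandin F receptor gene PTGFR (−3.77, adjusted p = 0.0498, close to the threshold) were also in this group.

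Of 24 mesenchymal genes listed, 13 were tested. By limma 0 of these were called in the difference (1.28% of all rows), with 1 at an unadjusted p below 0.05 (18.9% of all rows). The median change was 0.83 in HCC4006 and 0.06 in HCC827, the median difference −0.19, and 9 of the 13 differences were negative. Summed over the found members, the level was 11850 to 19510 FPKM in HCC4006 DMSO and 34880 to 39780 in resistant HCC4006, against 5244 to 5758 and then 7646 to 10930 in HCC827. Vimentin (VIM) measured 2036 and 3292, then 9074 and 9193 FPKM in HCC4006, and 155 and 341, then 800.4 and 1071 in HCC827. Both lines were higher in resistant cells, by 1.82 and 2.01 on the log2 scale, though neither change passed (adjusted p = 0.0867 and 0.0997). The difference was 0.19 with a 95% interval of −1.20 to 1.58, and its sign turned when some libraries were left out. N-cadherin (CDH2) was listed at 0 in all 4 HCC827 libraries, with 326 and 355, then 762 and 771 FPKM in HCC4006, and had no test.

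Markers of other cell types gave the following values. Of 14 immune cell markers, 9 were at 0 in all 8 libraries, PTPRC, CD3E and MS4A1 among them. Their summed level lay between 264 and 337 FPKM in HCC827 DMSO, 339 and 356 in resistant HCC827, 298 and 1128 in HCC4006 DMSO and 356 and 436 in resistant HCC4006, nearly all of it CD68. Of 9 fibroblast markers, 4 were at 0 in all 8, COL3A1, FAP, THY1 and PDPN. Their sum ran from 71.7 to 122 FPKM in HCC4006 DMSO and 96.6 to 119 in resistant HCC4006. In HCC827 it was lower in resistant libraries, at 13.4 to 18.1 FPKM, than in DMSO, at 44.1 to 50.9. In bulk RNA, fewer cells of a type and less RNA per cell cannot be told apart.

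The rule for opposite change was met by 3 genes, all called lower in HCC4006 and higher in HCC827. WFDC2, which encodes a secreted protease inhibitor of airway and genital epithelia (chr20:44098345-44110172), measured 677 and 401 FPKM in HCC4006 DMSO libraries and 7.89 and 5.22 in resistant ones. In HCC827 it went the other way, from 31.4 and 14.1 FPKM in DMSO to 851 and 1267 in resistant libraries. Resistant HCC827 was above HCC4006 DMSO, and the order of the lines was exchanged. The changes were −6.23 in HCC4006 (adjusted p = 0.00119) and 5.59 in HCC827 (adjusted p = 0.00648). The difference of 11.82 (SE 0.67, 95% interval 10.29 to 13.36, adjusted p = 0.000381) was the largest of the 187.

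DHRS3, a retinaldehyde reductase gene (chr1:12627938-12677737), went from 1617 and 528 FPKM to 42.5 and 62.1 in HCC4006 and from 19.0 and 4.02 to 393 and 329.6 in HCC827. Its DMSO libraries spread widely in both lines, yet no DMSO library overlapped a resistant one of its line. The changes were −4.16 and 5.26, with a difference of 9.42 (SE 1.02, adjusted p = 0.00877). GALNT12, an enzyme gene that starts mucin-type sugar chains (chr9:101569980-101634560), went from 117 and 148 to 28.1 and 23.5 FPKM in HCC4006 and from 58.0 and 47.7 to 239 and 252 in HCC827. Replicates were close here, and the changes of −2.34 and 2.21 nearly mirrored each other (difference 4.55, SE 0.43, adjusted p = 0.00525). The rows of DHRS3 and GALNT12 shared a locus with another row, which kept both outside the rule for named genes, and they were chosen after their values were seen.

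Many more rows moved apart without both lines passing. Of the 88 remaining rows, 86 had opposite signs. In 53 of them neither line was called, all 53 with opposite signs, so the difference passed where the parts did not. In 28 HCC4006 was called and the HCC827 change was 1 or more, and in 7 HCC827 was called and the HCC4006 change was 1 or more. AGR2, a disulfide isomerase gene of mucus-secreting epithelia, measured 9534 and 1219 FPKM in HCC4006 DMSO, 10.7 and 2.10 in resistant HCC4006, and 1414 and 657, then 1809.6 and 2084 in HCC827. Its HCC4006 libraries disagreed by several fold within each group, and the difference was 10.32 (SE 1.37, adjusted p = 0.0215). AGR2 and WFDC2 were the 2 called of 8 tested lung lineage genes, against 1.28% of all rows.

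BIK, a gene of a BH3-only protein that promotes cell death, was the 1 called of 15 tested BCL2 and IAP family genes, against 1.28% of all rows. It measured 67.1 and 45.4 FPKM in HCC4006 DMSO and 5.51 and 9.18 in resistant HCC4006, against 113 and 74.7, then 246 and 430.1 in HCC827. Groups did not overlap in either line, and the difference was 4.68 (SE 0.62, adjusted p = 0.0215). The prostaglandin E synthase gene PTGES went from 386 and 799 to 62.9 and 48.0 FPKM in HCC4006 and from 125 and 58.5 to 480.1 and 458 in HCC827 (difference 5.77, SE 0.65, adjusted p = 0.00998). PTGES, the retinoid-induced gene RARRES3 (5.92), the kinase adaptor gene GRB7 (4.63) and the lysosomal protease gene CTSH (3.92), chosen after their values were seen, had negative changes in HCC4006 and positive ones in HCC827.

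The opposite pattern, higher in resistant HCC4006 and lower in resistant HCC827, was strongest in the drug efflux pump gene ABCG2 (chr4:89011415-89152474). It measured 15.8 and 26.1 FPKM in HCC4006 DMSO and 75.2 and 64.9 in resistant HCC4006. In HCC827 it went from 114 and 209 FPKM to 2.65 and 4.30. The HCC827 change of −5.31 was called (adjusted p = 0.00648), the HCC4006 change of 1.76 was not (adjusted p = 0.117), and the difference was −7.07 (SE 0.65, adjusted p = 0.00472). ABCC2, another efflux pump gene, went from 1.20 and 1.34 to 3.23 and 4.34 FPKM in HCC4006 and from 167 and 182 to 5.69 and 14.3 in HCC827 (difference −5.46, SE 0.69, adjusted p = 0.0174). They were the 2 called of 16 tested efflux, xenobiotic and NRF2 genes, against 1.28% of all rows, in a list with a median difference of −0.15.

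Other genes of this pattern were chosen after their values were seen. IL7R, the interleukin 7 receptor gene, went from 0.898 and 5.20 to 117 and 88.3 FPKM in HCC4006 and from 36.3 and 23.6 to 13.2 and 8.61 in HCC827 (difference −6.59, SE 0.92, adjusted p = 0.0229). CLU, the secreted chaperone clusterin, went from 29.8 and 71.6 to 895 and 1049.6 FPKM in HCC4006 and from 26.5 and 65.2 to 6.83 and 17 in HCC827 (difference −6.27, SE 0.87, adjusted p = 0.0229). In both genes the HCC4006 change was called (adjusted p = 0.00982 and 0.015) and the HCC827 change was not. NNMT, which methylates nicotinamide (−5.37), the protease inhibitor gene SERPINE2 (−3.96), the fatty acid oxidation gene CPT1A (−5.14), the semaphorin receptor gene PLXNA2 (−5.92) and the costimulatory receptor gene TNFRSF9 (−4.95) had differences of the same sign.

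Among rows that rose in HCC827 alone, the largest rise that the rule picked came from a very low starting level. EMB, which encodes a partner of lactate transporters (chr5:49692025-49739082), measured 0.745 and 1.19 FPKM in HCC827 DMSO libraries and 48.1 and 23.7 in resistant ones. In HCC4006 it was present throughout, at 111 and 177 FPKM in DMSO and 158 and 114 in resistant libraries. The difference was 4.63 (SE 0.67, adjusted p = 0.0256). SLFN11, whose product acts on stressed replication forks, rose from 10.3 and 8.35 to 127 and 151 FPKM in HCC827 and measured 4.51 and 7.68, then 7.03 and 10.4 in HCC4006 (difference 3.33, SE 0.60, adjusted p = 0.0441). The cytokine-like gene FAM3C rose from 833 and 797 to 3646 and 2409 FPKM in HCC827, against 378 and 411, then 302 and 238 in HCC4006 (difference 2.42, SE 0.42, adjusted p = 0.0418).

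SMARCA1 and SMARCA2, which encode chromatin remodelling ATPases, were chosen after their values were seen, and no count of related genes was made. SMARCA1 (chrX:128580479-128657477), the ISWI family ATPase SNF2L, rose from 0.812 and 1.08 to 89.6 and 45.2 FPKM in HCC827 and stood at 346 and 198, then 184 and 213 in HCC4006 (difference 5.88, SE 0.63, adjusted p = 0.00877). SMARCA2, the SWI/SNF ATPase BRM, rose from 1.20 and 0.795 to 38.9 and 16.3 FPKM in HCC827, against 430.5 and 428, then 431 and 589 in HCC4006 (difference 3.89, SE 0.64, adjusted p = 0.0366). Resistant HCC827 thus remained below HCC4006 in both genes, as far as levels in separate tables can be compared. HDHD1A, a pseudouridine phosphatase gene, rose from 3.49 and 2.49 to 84.0 and 113 FPKM and had a difference of 5.25.

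Falls in HCC827 alone included FAM43A, from 37.9 and 46.7 to 2.85 and 3.59 FPKM, against 22.4 and 13.5, then 17.4 and 17 in HCC4006 (difference −3.51, SE 0.58, adjusted p = 0.0372). The small heat shock protein gene HSPB8 fell from 66.0 and 69.6 to 16.6 and 13.9 FPKM, and stood at 45.0 and 43.8, then 70.6 and 57.8 in HCC4006 (difference −2.64, SE 0.46, adjusted p = 0.0422). The RNA helicase gene DHX33 fell from 303 and 296 to 75.9 and 66.7 FPKM, with 66.8 and 77.4, then 88.7 and 88.1 in HCC4006 (difference −2.36, SE 0.39, adjusted p = 0.0366). In all 3 the HCC827 groups were far apart and replicates close.

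Larger falls, on rows that share a locus and chosen after their values were seen, were those of ANKH and ZNF704. ANKH, a pyrophosphate transport gene, went from 85.4 and 82.5 to 1.77 and 0.941 FPKM in HCC827 and measured 172 and 165, then 210.4 and 219.7 in HCC4006 (difference −5.90, SE 0.49, adjusted p = 0.00447). ZNF704, a zinc finger gene, went from 174 and 46.4 to 0.352 and 0.378 FPKM in HCC827 and was low in HCC4006 at 1.59 and 0.734, then 0.783 and 0.466 (difference −6.18, SE 0.90, adjusted p = 0.0268). HCC4006 had little ZNF704 transcript to lose, so the 2 genes differ in their start.

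**Figure D3:**
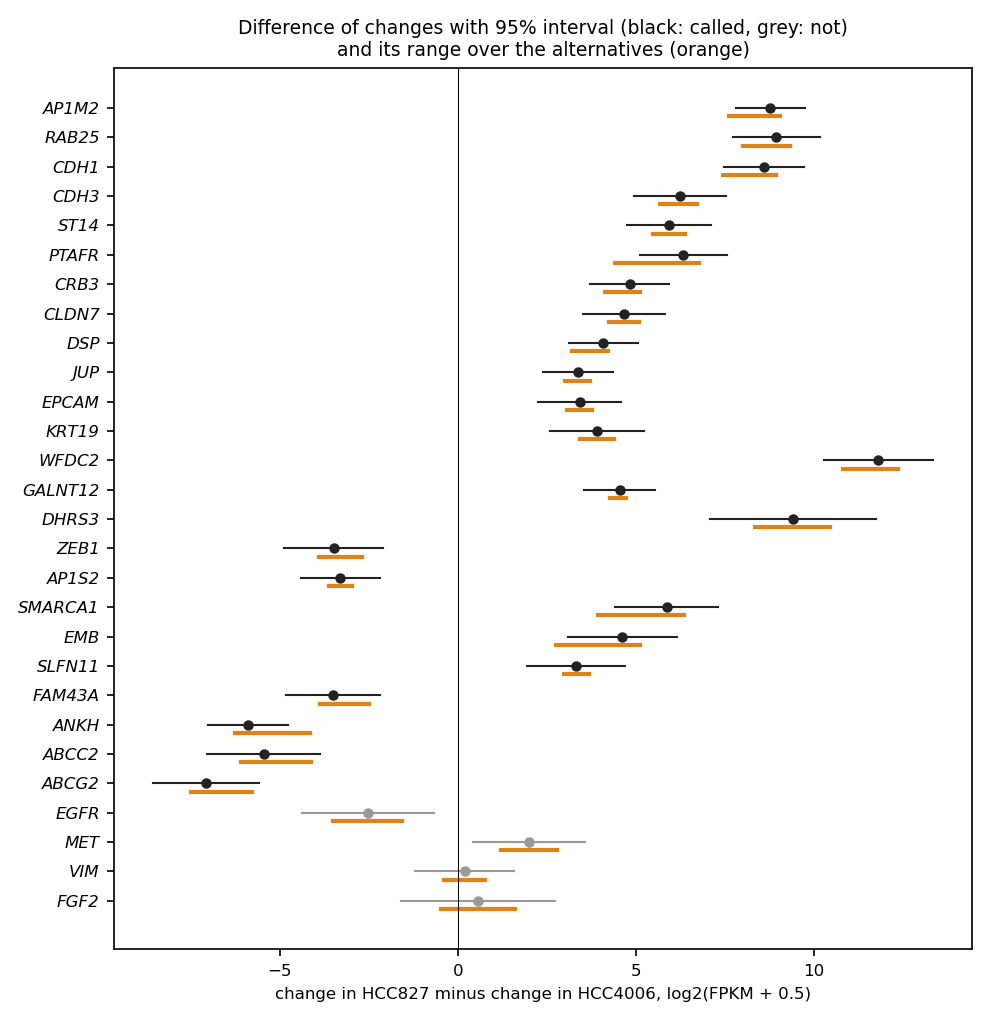
Difference of changes, HCC827 minus HCC4006, on the log2(FPKM + 0.5) scale for 28 genes; points with thin lines are estimates with 95% intervals (black called, grey not called), and orange bars give the range of the estimate over the other ways of processing and over leaving out each library. Bars of the called genes shown stay on 1 side of 0, whereas those of VIM and FGF2 cross it.

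Starting levels are given for each class. For the 66 rows that fell in HCC4006 alone, the median level difference between the lines, HCC827 minus HCC4006, was −0.44 in DMSO and 3.28 in resistant cells, and 6 rows came closer. For the 12 rows that rose in HCC827 alone it was −2.61 in DMSO and 0.81 in resistant cells, and 8 came closer. The 12 rows that fell in HCC827 alone went from 1.26 to −0.84, with 7 closer, and the 6 that rose in HCC4006 alone from 1.17 to −2.11, with 2 closer. Among the 14426 rows not called, 48.5% came closer. The levels in DMSO are part of the contrast that chose these rows, so these values and counts describe the classes and support nothing. They also set levels across separate tables.

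The receptor genes of the study did not pass in the difference. EGFR measured 1079 and 662, then 770.5 and 752 FPKM in HCC4006, and 5462 and 5246, then 1639 and 424 in HCC827. The HCC827 groups did not overlap, but the resistant libraries differed several fold between themselves. The difference was −2.53 (SE 0.81, 95% interval −4.38 to −0.68, adjusted p = 0.161). MET measured 1202 and 1353, then 1435 and 1521 FPKM in HCC4006, and 2567 and 2391, then 19878 and 6628 in HCC827, with a difference of 2.00 (SE 0.68, 95% interval 0.43 to 3.57, adjusted p = 0.178).

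FGFR1 was listed at 0 in all 4 HCC827 libraries, with 21.1 and 68.1, then 345 and 428 FPKM in HCC4006, and had no test here. FGF2, on a row that joins it with AC021205.1, went from 92.4 and 103 to 275 and 200.2 FPKM in HCC4006 and from 4.83 and 22.0 to 56.6 and 26.0 in HCC827. Resistant libraries were higher in both lines, and the difference of 0.57 (adjusted p = 0.78) had a 95% interval of −1.58 to 2.72. AXL was high in HCC4006 (1064 and 2004, then 2483 and 2844 FPKM) and low in HCC827 (9.15 and 16.4, then 13.9 and 8.34), with a difference of −1.04 (adjusted p = 0.391). Of 4 tested FGF genes and 15 tested other receptor kinase and ligand genes, 0 were called by limma, against 1.28% of all rows. At an unadjusted p below 0.05 there were 0 and 5, against 18.9% of all rows.

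The EGFR family list held 0 called genes of 11 by limma, against 1.28% of all rows, and 6 had an unadjusted p below 0.05, against 18.9% of all rows. ERBB3, the partner receptor gene of EGFR, went from 215 and 109.8 to 6.90 and 13.6 FPKM in HCC4006 (called, adjusted p = 0.0156) and measured 303 and 114, then 207 and 220.3 in HCC827. Its difference of 4.11 (SE 0.78) missed the threshold narrowly (adjusted p = 0.0517). It passed in 6 of 12 other ways of processing all 8 libraries, so the miss depends on the processing. ERBB2 and the ligand gene AREG had differences of 2.30 and 4.93 (adjusted p = 0.0748 and 0.0735), with opposite signs in the lines. The ERK output list had 0 called of 18, with 4 at an unadjusted p below 0.05, against the same 1.28% and 18.9% of all rows.

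Neither EGFR nor its tested neighbours on 7p11 passed in the difference. LANCL2 (chr7:55433140-55501435) measured 2318 and 4093 FPKM in HCC827 DMSO libraries and 621 and 728 in resistant ones, against 249.7 and 579, then 501 and 334 in HCC4006. VOPP1 measured 4706 and 5975, then 1928 and 1316 FPKM in HCC827, against 376 and 733, then 882 and 832 in HCC4006. Of 9 tested rows there, all 9 had a negative HCC827 change, against 56.5% of all rows. The HCC827 interval lay wholly below 0 in 5 of them, against 8.39% of all rows, and the HCC4006 interval lay off 0 in 0, against 15.2%. As differences, 0 were called after adjustment in limma. Counted by member, 4 of 11 had an unadjusted p below 0.05, against 18.9% of all rows, though the 11 lie on 9 rows. Levels were also summed over the found members, so a row that joins members is counted once for each. This sum was 84050 to 86300 FPKM in HCC827 DMSO and 31880 to 33480 in resistant HCC827. In HCC4006 it was 15060 to 19690 in DMSO and 15050 to 17070 in resistant libraries. Negative HCC827 changes were also common elsewhere on chromosome 7. By 5 Mb window, the median HCC827 change was −0.44 at 55 to 60 Mb, which holds EGFR. It was −0.76 at 25 to 30 Mb, −0.74 at 35 to 40 Mb and −1.19 at 60 to 65 Mb. By contrast, it was −0.12 at 45 to 50 Mb, 0.61 at 0 to 5 Mb and 0.77 at 120 to 125 Mb, which holds FAM3C.

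**Figure D4:**
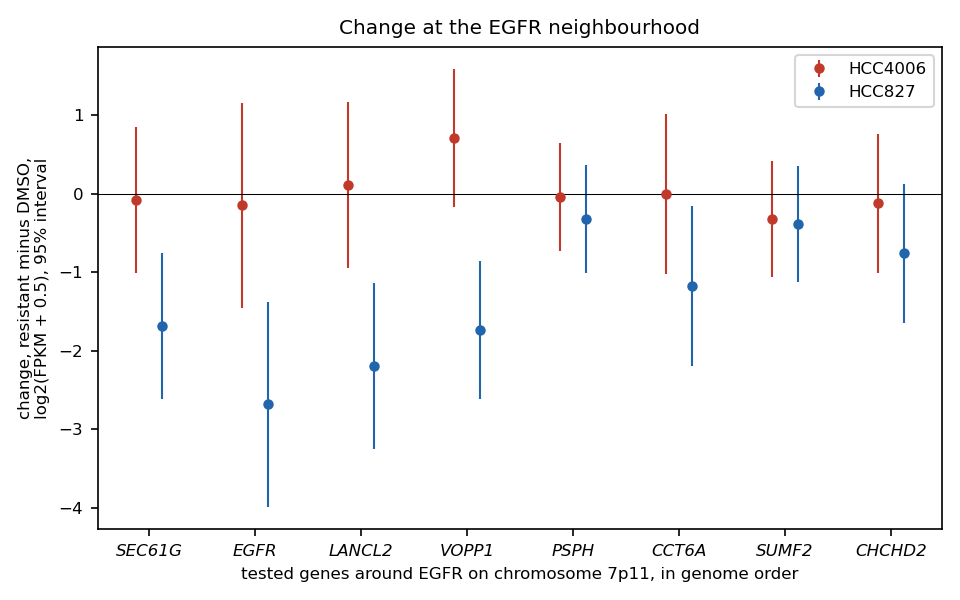
Change with resistance, on the log2(FPKM + 0.5) scale with its 95% interval, of 8 tested genes around EGFR on 7p11 in genome order, in HCC4006 (red) and HCC827 (blue). HCC4006 intervals span 0 throughout, while those of SEC61G, EGFR, LANCL2, VOPP1 and CCT6A in HCC827 lie below 0.

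Negative changes in HCC827 were also frequent on the short arm of chromosome 17. In the window from 15 to 20 Mb, 5 of 62 rows were called, all with the lower change in HCC827, against 0.424% of all rows. They were TOP3A, ALKBH5, NT5M, PMP22 and CENPV. TOP3A, a topoisomerase gene, measured 427 and 352, then 95.5 and 92.4 FPKM in HCC827, and 154 and 166, then 163 and 145 in HCC4006 (difference −1.98, adjusted p = 0.0498). CENPV, a centromere protein gene, measured 199.9 and 319, then 17.4 and 32.7 FPKM in HCC827, and 14.1 and 17.9, then 32.7 and 32.7 in HCC4006 (difference −4.39, adjusted p = 0.0229). TOP3A shares its listed locus with the RNA demethylase gene ALKBH5, so these are not independent.

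Most rows there moved the same way. Over the 206 rows that start in the first 20 Mb of chromosome 17, the median change was −0.94 in HCC827 and −0.12 in HCC4006, against −0.10 and −0.04 over all rows. The change was negative in 83% of those rows in HCC827 and 59.2% in HCC4006, against 56.5% and 52.6% of all rows. Of the 206, 6 were called with the lower change in HCC827 and 2 with the higher, CLDN7 and CXCL16, against 0.424% and 0.855% of all rows. This window and the next were chosen after the values were seen.

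Between 65 and 70 Mb of chromosome 16, 7 of 66 rows were called, all with the higher change in HCC827, against 0.855% of all rows. They were CDH1, CDH3, ESRP2, the polarity gene PARD6A (4.54), ELMO3 (3.34), CMTM4 (2.24) and RP11-96D1.1. The median change over the window was −0.08 in HCC4006 and 0.22 in HCC827. The windows with the largest shares of 1 direction by rule held 2 called rows each. With the higher change in HCC827, against 0.855% of all rows, these were 2 of 13 at 15 to 20 Mb of chromosome 21 and 2 of 13 at 5 to 10 Mb of X, HDHD1A among them. With the lower change, against 0.424% of all rows, these were 2 of 17 at 115 to 120 Mb of chromosome 12, HSPB8 and the T-box factor gene TBX3 (−3.36).

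Several lists without a called member had differences mostly of 1 sign, and 3 of them, on which libraries of a group disagreed, are described here. Others, with negative differences, were the 7p11 neighbours (11 of 11 members, on 9 rows), collagens (8 of 9), YAP and TEAD targets (10 of 13) and TGF-beta and BMP genes (14 of 20). Of all rows, 18.9% had an unadjusted p below 0.05 in limma. Inflammatory cytokine and NF-kB target genes had a median change of 1.79 in HCC4006 and 0.14 in HCC827, with 13 of 15 differences negative (median −1.73), 0 called by limma and 7 at an unadjusted p below 0.05. CSF1 changed by 2.99 in HCC4006 and −0.11 in HCC827, and TNFAIP3 by 1.83 and −1.35. DMSO libraries disagreed for this list, with a median log2 A minus B of 1.29 in HCC4006 and 1.73 in HCC827. Their part in the result was not tested. The list's median difference lay between −2.67 and −0.87 over the alternatives.

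Unfolded protein, ATF4 and heat shock genes had a median change of −1.41 in HCC4006 and 0.36 in HCC827, with 21 of 24 differences positive (median 1.83), 0 called by limma and 4 at an unadjusted p below 0.05. The stress factor gene DDIT3 changed by −2.86 in HCC4006 and 2.10 in HCC827. The HCC4006 DMSO libraries differed by a median log2 A minus B of 2.61 on these genes. The median difference was 0.46 to 3.30 over the alternatives, and the part of those libraries was not tested otherwise. Cell cycle genes had a median change of 0.56 in HCC4006 and −0.77 in HCC827, with all 24 differences negative (median −1.17), 0 called by limma and 2 at an unadjusted p below 0.05. Here the median log2 A minus B was −1.89 in HCC4006 DMSO and −1.35 in resistant HCC827, and the median difference ran from −2.24 to −0.04 over the alternatives.

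**Figure D5:**
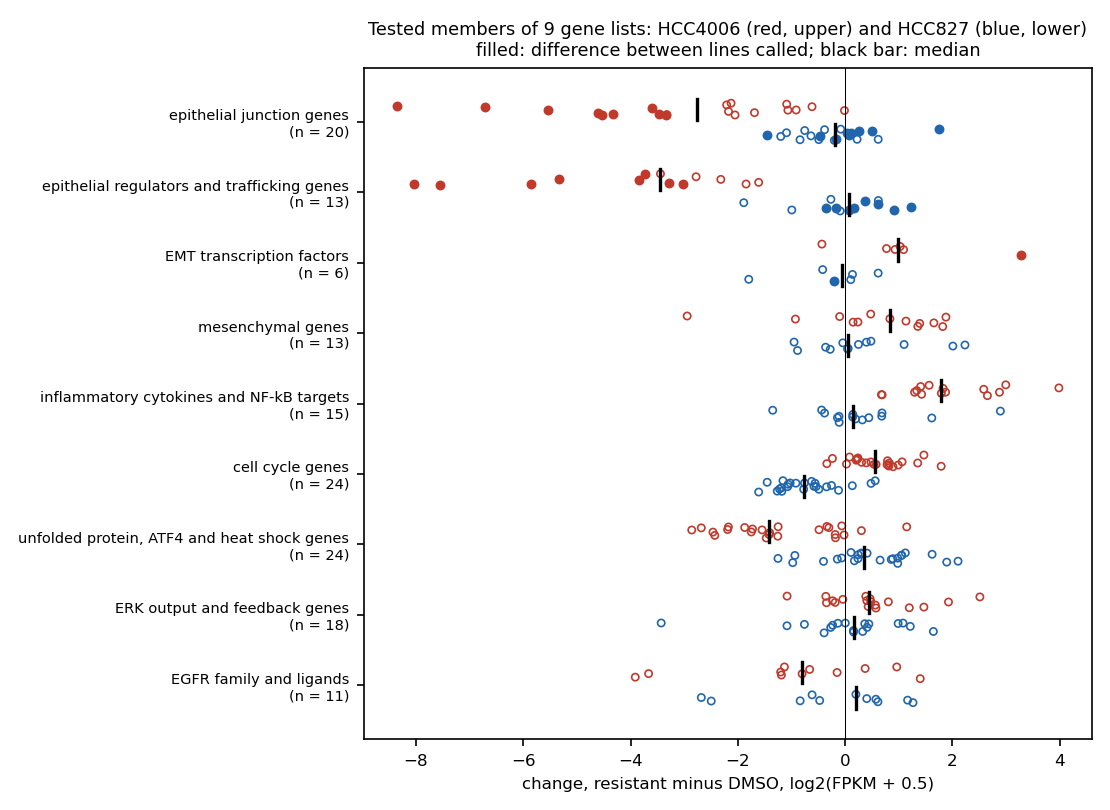
Change with resistance, on the log2(FPKM + 0.5) scale, of each tested member of 9 gene lists in HCC4006 (red, upper) and HCC827 (blue, lower); filled points are members called in the difference and black bars are medians. Epithelial lists spread to the left in HCC4006 and stay around 0 in HCC827, cytokine genes lie to the right in HCC4006, and the EGFR family and ERK lists hold no filled point.

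Other lists gave 0 or few calls. By limma 0 of 20 tested TGF-beta and BMP genes, 0 of 21 interferon-stimulated genes, 0 of 18 cholesterol synthesis genes, 0 of 22 glycolysis and hypoxia genes, 0 of 9 collagens, 0 of 8 MHC class I genes, 0 of 13 YAP and TEAD targets and 0 of 14 WNT and Notch genes were called. At an unadjusted p below 0.05 these lists held 4, 3, 1, 4, 5, 2, 2 and 4 members, against 2760 of all 14613 rows. Collagens had 8 of 9 differences negative (median −1.18).

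Some calls rested on more than others. Leaving out each of the 8 libraries in turn, 11 of the 187 rows were called every time, and 97 were called in at most 1 of the 8 fits. The 11 were AP1M2, CDH1, WFDC2, RAB25, ANKH, PTAFR, ST14, ABCG2, C1orf106, CDH3 and the row AC117494.1 with hsa-mir-492. ZEB1 was called in 1 of the 8, the fit without library B of HCC4006 DMSO, as were SLFN11, FAM3C, HSPB8, DHX33, STRA6, ESRP2, SPINT1, MARVELD2, TJP3, ITGB4, GRB7, ELMO3, CMTM4, TBX3, NT5M, TOP3A, ALKBH5 and PTGFR. At the threshold, RP11-118H4.1 lay just inside (adjusted p = 0.0498) and the adhesion gene BCAM just outside (0.0506).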

How the data were processed

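RNA with polyA tails from 8 samples was made into unstranded libraries, per the labels' protocols. Reads were processed with TopHat 1.4.1, Cufflinks 1.3.0 and Cuffdiff (version not given in the sources used here) on hg19, per the submitters' processing notes. The deposited values are FPKM per gene, 1 table per line. Whether the tables were scaled together is not stated.

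Rows were matched by gene name and locus, and 1126 rows with repeated keys were left out. limma 3.58.1 in R 4.3.3 was fitted to log2(FPKM + 0.5) of all 8 libraries, with group as the only term, a mean-variance trend and Benjamini-Hochberg adjustment over 14613 rows. The pseudocount understates changes of low genes. A sign of change is resistant minus DMSO, and a difference is HCC827 minus HCC4006.

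Members and gene lists were chosen with earlier results of these data known. Named genes were the fixed genes of the study, the called list members, and, from single-name, unshared rows with a group mean of at least 10 FPKM, the 6 strongest of the opposite class and the 5 largest rises and falls of each single-line class. Most further names are marked as chosen after their values were seen. Uncalled list members given as examples (CLDN1, KRT8, ERBB2, ERBB3, AREG, CSF1, TNFAIP3 and DDIT3) and RAD51L3 were also named outside these rules, with their values known. The fit was run on simulated data with independent noise per gene and equal spread in all groups. There, 2 of 14413 unchanged rows were called. The real libraries differed in spread by group and shifted whole gene lists together, so this count does not give the rate of false calls here.

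Alternatives were other pseudocounts, filters, scalings, variance models, a replicate block, single-line fits, a looser threshold, unshared rows, each library left out and, added after seeing the data, repeated keys kept by row order (168 calls).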

Additional observations from a re-analysis of the deposited data

Results flagged for a closer look

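The results below were singled out because the change with resistance differed between the lines by the test of the difference itself, limma's contrast of the 2 changes. Each number in brackets is the HCC827 change less that of HCC4006 on the log2(FPKM + 0.5) scale, so that a positive one means a higher change in HCC827. The 3 genes of opposite change were WFDC2 (11.82), DHRS3 (9.42) and GALNT12 (4.55).

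Genes of epithelial junctions were CDH1 (8.61), CDH3 (6.24), EPCAM (3.42), CLDN7 (4.67), TJP3 (6.28), MARVELD2 (3.58), DSP (4.08), JUP (3.37) and CRB3 (4.83). Regulators, trafficking genes and proteases of epithelia were RAB25 (8.95), AP1M2 (8.78), ST14 (5.93), SPINT1 (3.88), PRSS8 (5.48), MAL2 (3.49), CDS1 (3.57) and ESRP2 (3.40). The keratin gene was KRT19 (3.92), and the integrin genes were ITGB4 (2.98) and ITGB6 (4.90). The lung gene AGR2 had 10.32 and the cell death gene BIK 4.68. Further genes with the higher change in HCC827 were STRA6 (6.48), PTAFR (6.34), SCNN1A (6.29), MYO1D (6.12), RARRES3 (5.92), PTGES (5.77), GRB7 (4.63) and CTSH (3.92), and, on chromosome 16, PARD6A (4.54), ELMO3 (3.34) and CMTM4 (2.24).

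ZEB1 and the adaptor gene AP1S2 were −3.49 and −3.31. The efflux genes were ABCG2 (−7.07) and ABCC2 (−5.46). Further genes with the lower change in HCC827 were IL7R (−6.59), CLU (−6.27), NNMT (−5.37), SERPINE2 (−3.96), CPT1A (−5.14), PLXNA2 (−5.92), TNFRSF9 (−4.95), PTGFR (−3.77), DPP4 (−4.00) and TBX3 (−3.36). On chromosome 17 they were TOP3A (−1.98), ALKBH5 (−2.08), NT5M (−3.61), PMP22 (−4.65), CENPV (−4.39) and DHX33 (−2.36) and, outside the first 20 Mb, RAD51L3 (−3.06).

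Rises in HCC827 alone were SMARCA1 (5.88), SMARCA2 (3.89), HDHD1A (5.25), EMB (4.63), SLFN11 (3.33) and FAM3C (2.42). Falls in HCC827 alone, besides TOP3A, ALKBH5 and DHX33, were ANKH (−5.90), ZNF704 (−6.18), FAM43A (−3.51) and HSPB8 (−2.64).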

How the results depend on the processing

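The main values were 187 rows called in the difference, 70 in HCC827 and 232 in HCC4006, with 3 in the opposite class, 72 in HCC4006 alone, 24 in HCC827 alone and 17 epithelial list members. With zeros kept and a mean of at least 0.5 FPKM (20387 rows), these became 2469, 1733, 2121, 125, 1039 and 783 for the first 6, and the share of calls with the higher change in HCC827 was 52% instead of 66.8%. The filter lets in rows listed at 0, and whether such zeros are failed estimates was not tested. At an adjusted p below 0.1 the same 6 counts were 594, 216, 522, 10, 209 and 96. Without the mean-variance trend the opposite class held 5 rows. With each line fitted alone, 12 rows were called in HCC827 and 55 in HCC4006. Over rows with 1 name and an unshared locus, fewer rows were tested, and 40 were called in HCC827, 1 was in the opposite class and 9 epithelial members were called. Except for the effect of fewer rows or samples, the cause was not tested.

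Leaving out each library in turn gave 11 to 1166 calls in the difference, 1 to 136 in HCC827, 30 to 676 in HCC4006, 0 to 16 in the opposite class, 7 to 386 in HCC4006 alone, 1 to 56 in HCC827 alone and 5 to 21 epithelial members; the group left with 1 library was assumed to vary like the others. The lowest and highest counts in the difference were those without library B of resistant HCC4006 and without library B of HCC4006 DMSO. VIM's difference turned to −0.16 without library B of HCC4006 DMSO, −0.38 without library A of HCC827 DMSO and −0.02 without library B of resistant HCC827, over a range of −0.38 to 0.76. That of FGF2 turned to −0.47 without library A of HCC827 DMSO, over a range of −0.47 to 1.6. Over the 78 genes named from the fit, 1149 of 1526 values kept direction and side of the threshold, 359 lost the call, 14 gained it and 4 turned, and the 67 called genes kept their sign throughout.

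With the library letter as a replicate block within each line, 33 rows were called in HCC827 and 7 were in HCC827 alone, against 134 in the difference and 255 in HCC4006. Same-lettered libraries deviated with a correlation of −0.085 in HCC4006 and 0.212 in HCC827, over 2 pairs each, and the letters are not tied to the labels' replicate numbers, so they share only a letter.

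Depth is not known from FPKM. With 2 libraries a group, simulated differences of 2 on the log2 scale were called in 0 of 100 rows and those of 4 in 61 of 100. The simulation gave all groups the same spread, and real calls included differences of −1.98 (TOP3A) and 2.24 (CMTM4), so these shares are only a rough guide. Smaller differences between the lines may still be mostly out of reach. Rows listed at 0 in any library and 1126 rows with repeated names and loci were not compared, and whether the tables were scaled together is not stated.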
